A study of Macaca mulatta with 20 samples.

Results

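The 9 genes described here code for receptors on the surface of platelets, and they were followed in the blood of rhesus macaques before and after irradiation of the thorax. They were taken by gene symbol: ITGA2B and ITGB3 (the fibrinogen receptor), GP1BA, GP1BB, GP9 and GP5 (the von Willebrand factor receptor), GP6 (a collagen receptor), CLEC1B (the podoplanin receptor CLEC-2) and P2RY12 (an ADP receptor). The array names 24655 genes on 34127 different probes, of which 12 probes are for these 9 genes. A probe was used where it was well above the local background on at least 5 of the 20 arrays, which held for 9 of the 12 receptor probes and for 19961 probes in all. The 9 probes measured 6 genes, with 3 probes for CLEC1B, 2 for GP1BB and 1 each for ITGA2B, ITGB3, GP9 and P2RY12. Each of these 6 genes was well above background on at least 3 arrays of every group, so none passed through 1 group alone. GP1BA, GP5 and GP6 did not pass and are described apart.

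Whole blood RNA was depleted of globin transcripts and hybridized to one-color Agilent arrays, with 5 arrays in each of 4 groups. The animals (Macaca mulatta, male and of Chinese origin) had 10 Gy of X-rays delivered to the whole thorax, in a study arm that received no mitigator. Blood came from the same study arm pre-irradiation and again 2, 5 and 30 days after exposure, so the later days share the 5 pre-irradiation arrays as their control, and the labels name 8 animals as the source of the blood. No sham-irradiated group was analysed here, so the irradiation and the passing of time cannot be told apart. According to the methods, comparisons were matched by animal, and in 1 case RNA of a pair of animals was pooled. Which array that is, and which animal a replicate number stands for, is not given in the labels. Values are log2 processed signals from which the 75th percentile of the array was subtracted, called signal below, so a value of 0 is as bright as the 75th percentile of that array's probes. The probes were designed on human transcripts, so a mismatch with the macaque transcript can lower a probe's signal on every array alike.

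Platelets are cell fragments without a nucleus, shed by megakaryocytes, and they carry RNA made in the megakaryocyte together with little of their own making. At a wounded vessel the GPIb-IX-V complex catches von Willebrand factor, GPVI and CLEC-2 start a tyrosine kinase signal through SYK, and ADP released from granules acts on P2Y12 to reinforce it. These signals open the integrin αIIbβ3, which then binds fibrinogen and links platelets to each other. In blood such transcripts are known mainly from platelets, but which cells gave the signal of each probe here was not tested. Fewer or more platelets in the blood and less or more RNA in each platelet cannot be told apart in these bulk values.

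Probe sequences are shown for the 3 receptors whose probes stand for the main patterns, an integrin chain, CLEC-2 and the ADP receptor. All are 60 bases long and are printed in lower case from 5′ to 3′, with no base marked, because no macaque sequence was compared with them. Positions are those of the array annotation on the human genome build hg19.

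ITGA2B: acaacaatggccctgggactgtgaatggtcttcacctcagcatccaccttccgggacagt

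CLEC1B: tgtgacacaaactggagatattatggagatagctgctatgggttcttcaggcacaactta

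P2RY12: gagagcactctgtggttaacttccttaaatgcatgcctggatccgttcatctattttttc

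The ITGA2B probe lies at chr17:42453290-42453349 on the minus strand and starts at base 2484 of its transcript. The CLEC1B probe shown, 1 of 3, lies at chr12:10149520-10149579 on the minus strand and starts at base 503. The P2RY12 probe lies at chr3:151055734-151055793 on the minus strand and starts at base 1140. The brightest CLEC1B probe, which stands for the gene below, lies at chr12:10145742-10145801. The other receptor probes lie at chr17:45389027-45389086 (ITGB3), chr22:19712238-19712297 (GP1BB, the brighter of 2 that overlap by 5 bases) and chr3:128781186-128781245 (GP9), all on the plus strand. GP1BB shares its 3′ end with readthrough transcripts of the neighboring septin gene, so the signal of its probes can include them.

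The share of spots well above background was 50.9% to 67.3% per array, and each of 5 slides held 1 array of every group. Arrays that share a slide mostly had different replicate numbers, so differences within slides can hold differences between animals. Replicate numbers were checked by comparing each array with the mean profile of every number over 300 probes that differ between numbers. These probes were picked on the same arrays by the same numbers, which favors a match with the own number. All 8 arrays of replicates 1 and 2 resembled their own number most (correlation 0.672 to 0.963), as did the pre-irradiation, day 5 and day 30 arrays of replicate 3 (0.626 to 0.811). The day 2 array of replicate 3 resembled no number (0.01 with its own, at most 0.23 with another). Among the 8 arrays of replicates 4 and 5, 5 resembled their own number most and 3 the other of these numbers. These 3 were pre-irradiation replicate 5 (0.07 with its own, 0.68 with replicate 4) and replicate 4 at day 5 and day 30. Pairs of replicates 4 and 5 may thus not join samples of the same animal, in any of the comparisons. Because of this, results that use day 2 are also given without replicate 3 and without pairing, and the other comparisons without pairing. All 6 platelet markers fixed for the check (PF4, PPBP, TUBB1, SPARC, TREML1 and NRGN) passed the background filter, as did the leukocyte gene PTPRC.

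At 2 days after irradiation all 6 measured receptor genes were higher than before, each in 5 of 5 pairs, with a median log2 difference of 1.46 (SD 0.54 over pairs, n = 5). The range over genes was 1.0 for GP9 to 1.95 for ITGB3, or 2.01-fold to 3.87-fold. Over all probes tested the median difference was -0.02. None of the 6 was called by limma at the limits of the study, a p-value under 0.005 with a false discovery rate under 10% (adjusted p = 0.114 to 0.159), where 0.0551% of all probes were called. All 6 had an unadjusted p-value under 0.005 in the higher direction, which 2.03% of all probes had, and an unadjusted p-value under 0.05 in that direction was found for 8.91%. Being higher in every pair held for 6.5% of all probes. The smallest pair was replicate 2, with a median over the 6 genes of 0.49, and the other 4 pairs lay between 1.51 and 1.95. Without replicate 2 limma called all 6 genes, with adjusted p-values from 0.040 to 0.087, among 681 probes called in all against 11 with the 5 pairs. Without replicate 3 the median was 1.44 and all 6 kept an unadjusted p-value under 0.005, none of them called. That count was 3 when replicate 1 was left out, 4 when replicate 5 was and 5 when replicate 4 was. Over all probes the higher ones were 272 without replicate 3, 180 without replicate 1, 257 without replicate 5 and 170 without replicate 4. With no pairing the median was the same, 3 of 6 genes had an unadjusted p-value under 0.005, and the adjusted p-values from limma were 0.381 to 0.435. With the day 2 array of replicate 3 left out and no pairing, the median was 1.61 and the count again 3 of 6. Over all probes, 148 and 120 were higher under 0.005 in these unpaired fits, in this order. Within the 5 slides the median difference lay between 0.42 and 1.95.

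**Figure D1:**
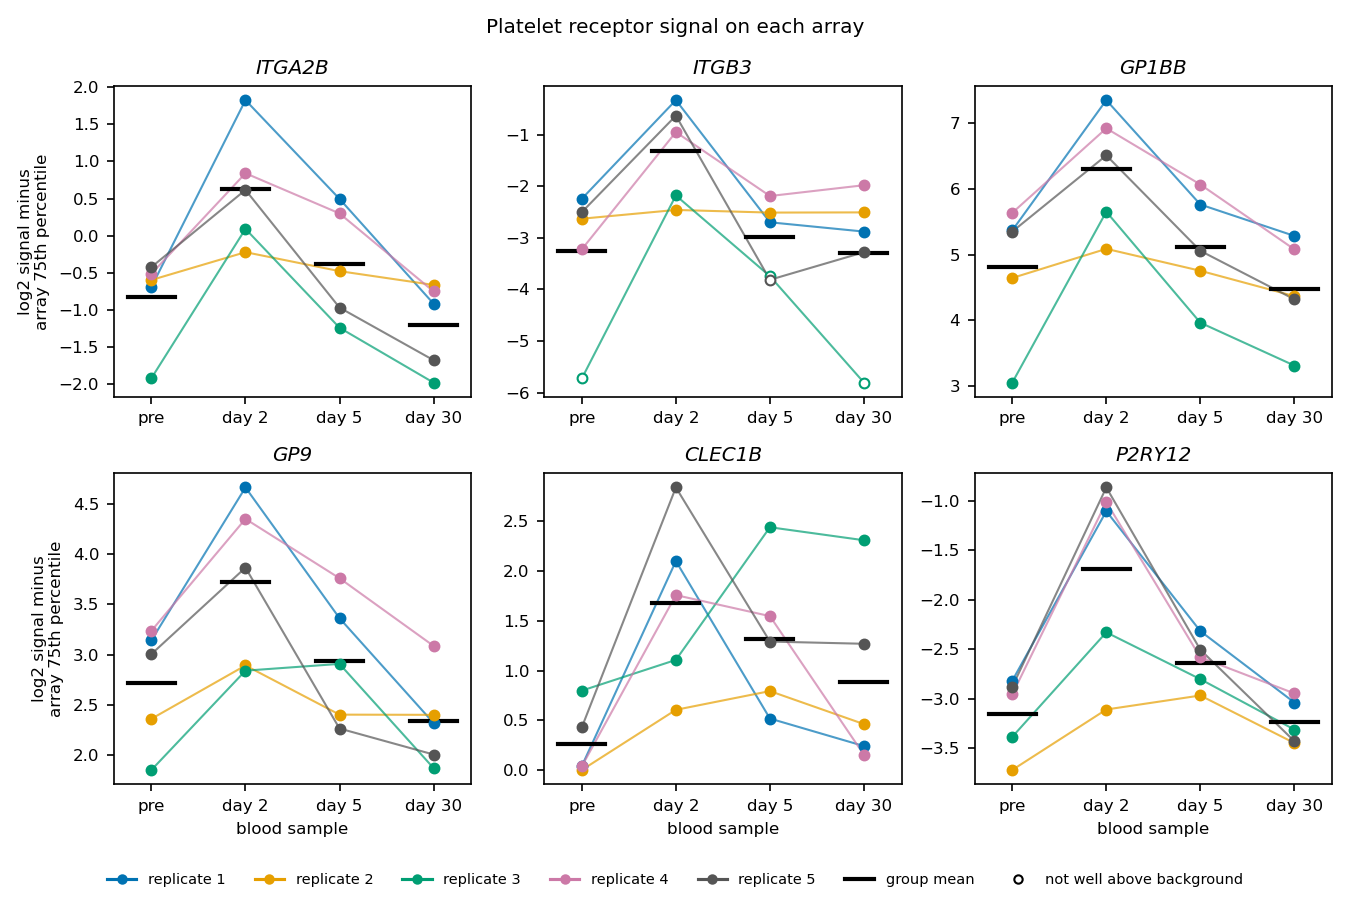
Signal of the 6 measured receptor genes (brightest probe of each) on every array, as log2 processed signal minus the 75th percentile of the array, against the time of the blood sample. Points of 1 color are joined by replicate number, black bars are group means, and open points were not well above background. Every line goes up from pre-irradiation to day 2, least in replicate 2 for the genes other than CLEC1B. In replicate 3, whose day 2 array resembled no replicate number, the CLEC1B line lies higher at day 5 and day 30 than at day 2.

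ITGA2B codes for the αIIb chain, the platelet-specific part of the fibrinogen receptor. Before irradiation its signal was -0.69, -0.60, -1.92, -0.51 and -0.42 in replicates 1 to 5. At day 2 it was 1.83, -0.22, 0.09, 0.84 and 0.62. The groups did not overlap: the lowest day 2 array lay above the highest pre-irradiation array, as for 0.581% of all probes in the higher direction. The log2 difference was 1.46 ± 0.37 (SE, n = 5 pairs), a 2.75-fold higher signal, with an adjusted p of 0.143 from limma. At day 5 the signal was 0.50, -0.48, -1.24, 0.30 and -0.97, and at day 30 it was -0.92, -0.67, -1.98, -0.75 and -1.68. By day 5 replicate 5 was below its own pre-irradiation value, and the other 4 were still above theirs. Day 30 was lower than pre-irradiation in 5 of 5 pairs, as for 9.51% of all probes, with a log2 difference of -0.37 ± 0.22 (adjusted p = 0.411 from limma). Replicate 5 differed by -1.26 and the other 4 by -0.24 to -0.06, and without replicate 5 the mean was -0.15.

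ITGB3 codes for the β3 chain, which pairs with αIIb in platelets and with αV in other cells. Its signal before irradiation was -2.24, -2.63, -5.72, -3.22 and -2.50, and at day 2 it was -0.33, -2.46, -2.18, -0.95 and -0.63. The pre-irradiation array of replicate 3 was not well above background, and that pair alone differed by 3.55. The log2 difference was 1.95 ± 0.54 (SE, n = 5 pairs, adjusted p = 0.150 from limma), and 1.56 without replicate 3. The day 5 signal was -2.70, -2.51, -3.74, -2.19 and -3.81, with replicates 3 and 5 not well above background. At day 30 it was -2.88, -2.51, -5.81, -1.98 and -3.28, with replicate 3 not well above background. Both later days overlapped the pre-irradiation range, with log2 differences of 0.27 at day 5 and -0.03 at day 30, and the sign of each turned with the scaling or when 1 replicate was left out.

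GP1BB, GP9, GP1BA and GP5 make up the receptor that slows platelets on von Willebrand factor. GP1BB codes for the small chain that is linked to the ligand-binding chain GP1BA. Its signal was 5.37, 4.64, 3.05, 5.63 and 5.35 before irradiation and 7.35, 5.09, 5.65, 6.92 and 6.51 at day 2. Every day 2 array but that of replicate 2 was above the highest pre-irradiation array. The log2 difference was 1.49 ± 0.37 (SE, n = 5 pairs, adjusted p = 0.137 from limma) on this probe and 1.56 ± 0.45 on the other GP1BB probe. Replicate 3 gave the widest pair, 2.60, and without it the difference was 1.22. The day 5 signal was 5.76, 4.75, 3.97, 6.06 and 5.06, and at day 30 it was 5.28, 4.37, 3.31, 5.08 and 4.32. Day 5 differed from pre-irradiation by 0.31 and day 30 by -0.34, each within the spread between arrays, and replicate 3 stayed lowest in the 3 groups other than day 2.

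GP9 codes for the small glycoprotein that the complex needs to reach the cell surface. Its signal was 3.14, 2.36, 1.85, 3.24 and 3.0 before irradiation and 4.67, 2.89, 2.84, 4.35 and 3.87 at day 2. The groups overlapped, with replicates 2 and 3 at day 2 inside the pre-irradiation range. The pairs differed by 0.53 to 1.52, with a mean of 1.0 ± 0.16 (SE, n = 5 pairs, adjusted p = 0.126 from limma). The day 5 signal was 3.36, 2.40, 2.91, 3.76 and 2.26, and at day 30 it was 2.32, 2.40, 1.87, 3.09 and 2.00. Day 5 was higher in 4 of 5 pairs by a mean of 0.22, and day 30 was lower in 3 of 5 pairs, with a mean difference of -0.38.

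CLEC1B codes for CLEC-2, a lectin-like receptor of platelets and megakaryocytes that binds podoplanin. Its signal was 0.04, 0.00, 0.80, 0.04 and 0.43 before irradiation and 2.10, 0.61, 1.11, 1.76 and 2.84 at day 2. Replicates 2 and 3 had the smallest differences, 0.60 and 0.31, and the mean was 1.42 ± 0.41 (SE, n = 5 pairs, adjusted p = 0.159 from limma). Without replicate 3 the mean was 1.70. At day 5 the signal was 0.52, 0.79, 2.44, 1.55 and 1.29. At day 30 it was 0.24, 0.46, 2.31, 0.15 and 1.27. CLEC1B was the one receptor gene of the 6 above its pre-irradiation value in 5 of 5 pairs on all 3 days. Its replicate 3 was higher at day 5 and day 30 than at day 2, but the day 2 array of replicate 3 resembled no replicate number. The log2 difference was 1.06 ± 0.22 at day 5 (2.08-fold, adjusted p = 0.281 from limma) and 0.62 ± 0.25 at day 30 (1.54-fold, adjusted p = 0.233 from limma). Without replicate 3 these were 0.91 and 0.40. The other 2 probes gave 1.05 and 1.12 at day 5, and 0.58 and 0.59 at day 30. Of the 3 probes 1 did not overlap between pre-irradiation and day 2, and probes of the same gene correlated at 0.967 or more over the 20 arrays.

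P2RY12 codes for the G protein-coupled ADP receptor that clopidogrel blocks. Its signal was -2.82, -3.72, -3.38, -2.95 and -2.88 before irradiation and -1.11, -3.11, -2.33, -1.02 and -0.87 at day 2. Replicates 1, 4 and 5 moved together, by 1.71, 1.94 and 2.01, while replicate 2 moved by 0.61. The mean difference was 1.46 ± 0.27 (SE, n = 5 pairs), with the lowest adjusted p of the 6 genes (0.114 from limma). At day 5 the signal was -2.32, -2.97, -2.80, -2.58 and -2.50, and at day 30 it was -3.04, -3.45, -3.31, -2.95 and -3.43. Day 5 was higher in 5 of 5 pairs by 0.37 to 0.75, a mean of 0.52 ± 0.07 (adjusted p = 0.321 from limma, which pools the spread over probes), and day 30 differed by -0.08.

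**Figure D2:**
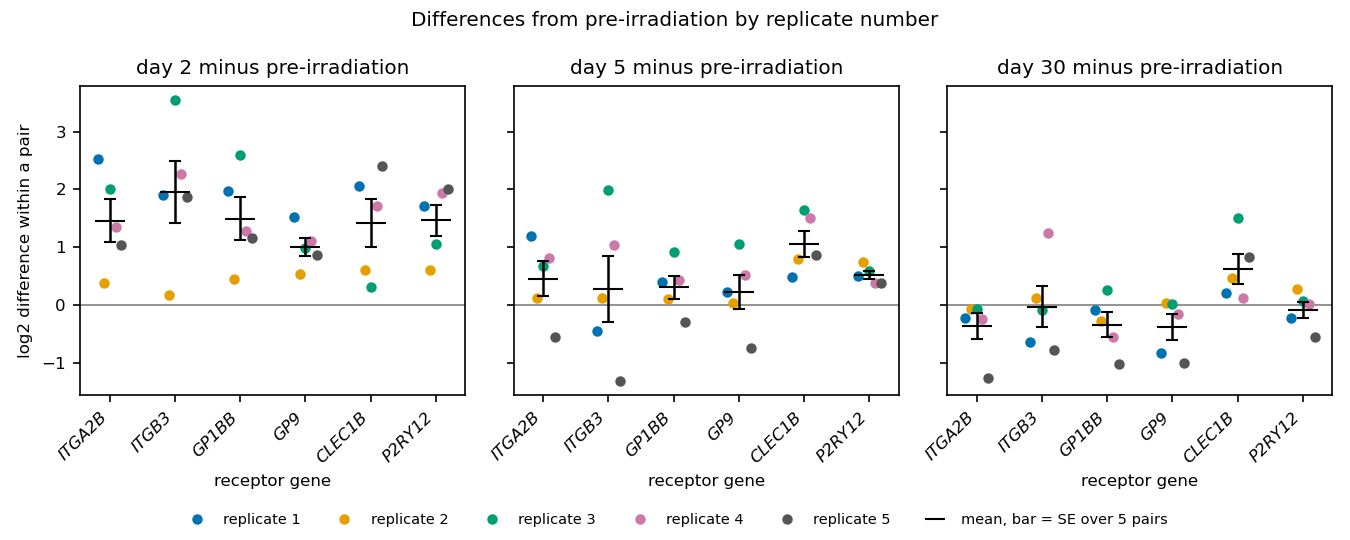
Log2 difference of each receptor gene from pre-irradiation on the 3 later days, one panel each, with 1 point per replicate number, the mean as a black bar and its standard error over 5 pairs. All points lie above 0 at day 2, those of P2RY12 also at day 5, and those of CLEC1B on all 3 days.

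At 5 days the median log2 difference of the 6 genes was 0.38 (SD 0.54 over pairs, n = 5), against 0.02 over all probes. All 6 means were above 0, from 0.22 to 1.06, and CLEC1B alone had an unadjusted p-value under 0.005, as 1.23% of all probes did in that direction. CLEC1B and P2RY12 had an unadjusted p-value under 0.05, as 7.2% of probes did. With no pairing CLEC1B was no longer under 0.005 (adjusted p = 0.927 from limma), where 42 of 19961 probes were in the higher direction. None of the 6 was called (adjusted p = 0.281 to 0.835 from limma), nor was any other probe (0% of 19961, of which 2266 were under an unadjusted p-value of 0.05). CLEC1B and P2RY12 were higher in every pair, which held for 7% of all probes. The other 4 genes were higher in 3 or 4 of 5 pairs, and replicate 5 was lower for each of them. The median over genes in replicate 5 was -0.42, and within slides it ranged from -0.52 to 2.07.

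At 30 days the median was -0.21 (SD 0.40 over pairs, n = 5), against 0.01 over all probes. CLEC1B was higher and the other 5 were lower, by up to 0.38 (GP9, log2 difference -0.38). None was called and none had an unadjusted p-value under 0.005 (adjusted p = 0.233 to 0.975 from limma), while 0.02% and 3.14% of all probes passed these limits, and CLEC1B alone was under an unadjusted p-value of 0.05, as 8.58% were in the higher direction. CLEC1B was higher in every pair, which held for 8.36% of all probes. With no pairing the median over the 6 genes was again -0.21. None was then called or under an unadjusted p-value of 0.005, where 0 and 224 of 19961 probes were. In replicate 5 the median over genes was -0.89, and in the other pairs it lay between -0.22 and 0.08. Within slides the median ranged from -1.35 to 0.74.

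The days were also compared with each other. Day 30 was lower than day 2 for all 6 genes, with a median log2 difference of -1.69 (SD 0.75 over pairs, n = 5). ITGB3 differed by -1.98, ITGA2B by -1.83, GP1BB by -1.83, P2RY12 by -1.55 and GP9 by -1.39, each lower in 5 of 5 pairs, which held for 6.29% of all probes. These 5 had an unadjusted p-value under 0.005, as 0.877% of all probes did in the lower direction, and CLEC1B was not under 0.05 either, where 6.95% of all probes were. None of the 6 was called (adjusted p = 0.137 to 0.474 from limma), where 0.0551% of all probes were. ITGA2B did not overlap between the 2 groups, as for 0.847% of probes in that direction. CLEC1B differed by -0.80 ± 0.58 (adjusted p = 0.474 from limma), lower in 4 of 5 pairs and higher by 1.2 in replicate 3. Without replicate 3 the CLEC1B difference was -1.29 and the median over genes -1.63. Without replicate 2 limma called ITGA2B (adjusted p = 0.039) and GP1BB (adjusted p = 0.027), among 67 probes called in all against 11 with the 5 pairs. Without replicate 4 or 5, 2 of the 6 had an unadjusted p-value under 0.005, and without replicate 1, 3 had. With no pairing 4 of the 6 had an unadjusted p-value under 0.005, also without the day 2 array of replicate 3. Over all probes, in either direction, 162, 161 and 154 had one without replicates 4, 5 and 1. In the unpaired fits 215 and 217 had one. Within slides the median ranged from -2.80 to -0.39.

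From day 2 to day 5 the median difference was -0.98 (SD 0.58 over pairs, n = 5). ITGB3 differed by -1.68, GP1BB by -1.18 and ITGA2B by -1.01, each with an unadjusted p-value under 0.005, which 0.2% of all probes had in that direction. They were lower in 5 of 5 pairs, as 1.88% of all probes were. P2RY12 (-0.95) and GP9 (-0.78) were lower in 4 of 5 pairs, and CLEC1B (-0.36 ± 0.55) in 3 of 5. Of the 6 genes 5 had an unadjusted p-value under 0.05, against 1.63% of all probes in that direction. No probe was called by limma (0% of 19961, of which 692 were under an unadjusted p-value of 0.05). Without replicate 3, 2 of the 6 genes had an unadjusted p-value under 0.005, GP1BB and GP9, while 0 had one without replicate 1, 2 without replicate 4 and 1 without replicate 5. With no pairing 1 did, ITGB3. Over all probes, in either direction, 49, 17, 54 and 48 did without replicates 3, 1, 4 and 5, and 24 with no pairing. Within slides the median lay between -2.35 and 0.70, so its sign was not the same on every slide. These differences mostly compare arrays of different replicate numbers. From day 5 to day 30 the median was -0.60 (SD 0.22 over pairs, n = 5), and ITGA2B (-0.82 ± 0.20) alone had an unadjusted p-value under 0.005, which 0.436% of all probes had in the lower direction. Of the 6 genes 4 were under 0.05, against 5.77% of all probes. ITGA2B, GP1BB (-0.65), GP9 (-0.60), P2RY12 (-0.60) and CLEC1B (-0.43) were lower in 5 of 5 pairs, which held for 5.5% of all probes, and ITGB3 (-0.30) in 2 of 5. No probe was called in this comparison either (0% of 19961, of which 1658 were under an unadjusted p-value of 0.05, adjusted p = 0.587 to 0.796 from limma for the 6 genes). Without replicate 1, 3, 4 or 5, or with no pairing, no receptor gene had an unadjusted p-value under 0.005. Over all probes 70, 117, 175, 90 and 48 had one in these fits, in either direction. Within slides the median lay between -1.97 and 0.17.

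By group means, all 6 genes had their highest level at day 2 and the next highest at day 5. ITGA2B, GP1BB, GP9, P2RY12 and ITGB3 then had pre-irradiation above day 30, while CLEC1B had day 30 above pre-irradiation. By the call limits no neighbors in these orders differed for any of the 6 genes. For CLEC1B day 2 and day 5 lay at 1.68 ± 0.87 and 1.32 ± 0.75 (SD, n = 5 arrays).

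The 6 genes did not all follow each other from array to array. Over the 20 arrays the 10 pairs formed by ITGA2B, ITGB3, GP1BB, GP9 and P2RY12 correlated at 0.69 to 0.93, highest for ITGA2B with GP1BB. CLEC1B correlated with the same 5 genes at 0.08 (ITGB3) to 0.58 (P2RY12), with a median of 0.20. With group means removed, the range was 0.45 to 0.89 among the 5 and -0.34 to 0.36 for CLEC1B. These 20 arrays share animals and slides, so the correlations describe this set and were not tested. The contrast was chosen after the values were seen. It rests in large part on replicates 3 and 5. In replicate 3 the difference between CLEC1B and the mean of the other 5 was already 2.02 before irradiation, against -0.51 to -0.01 in the other replicates. In replicate 3 it was 0.29 on the day 2 array, which resembled no replicate number, 2.62 at day 5 and 3.49 at day 30. From pre-irradiation to day 30 the difference changed by 1.47 in replicate 3 and 1.76 in replicate 5. In replicates 1, 2 and 4 it changed by 0.60, 0.44 and 0.05.

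Of 15359 other genes compared, the ones whose signal most resembled the mean profile of the 6 receptors over the 20 arrays were CMTM5 (r = 0.97), ABLIM3, PF4, ITGB5, AQP3, CTTN, EHD2, PPBP, NRGN and F13A1 (r = 0.92). PF4 and PPBP code for platelet chemokines stored in alpha-granules, and F13A1 for the A subunit of clotting factor XIII. The day 2 differences of the listed genes lay between 1.17 (F13A1) and 1.66 (AQP3), within the range of the receptors. They were chosen for likeness over these same arrays, so a similar day 2 difference follows from the choice. Gene by gene, the closest was TREML1, a receptor of platelet granule membranes, for ITGA2B (r = 0.97), C6orf25, the inhibitory platelet receptor also called MPIG6B, for ITGB3 (0.92) and GP1BB (0.95), ECM1 for GP9 (0.93) and NEXN for P2RY12 (0.93). CLEC1B had its closest gene, EGFL7, at r = 0.86.

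The wider set of platelet genes was described by lists, each gene by its brightest probe that passed. Of 28 other platelet receptors, 22 were tested, of which 18 were higher and 4 lower at day 2, with a median of 0.69. Of the 22, 8 had an unadjusted p-value under 0.005, all higher, and none was called. Of all probes 2.03% were higher under 0.005 at day 2 and 0.0551% were called. The 3 brightest were FCER1G, the chain that signals for GPVI (0.67 ± 0.06), C6orf25 (1.37 ± 0.33) and FCGR2A, an Fc receptor of platelets and leukocytes (0.54 ± 0.17). At day 5 and day 30 the median of this list was 0.31 and -0.06.

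Of 12 ligands of the receptors, 5 were tested, with a median of 0.65 at day 2. VWF, which codes for von Willebrand factor, the ligand of the GPIb complex, was higher by 1.44 ± 0.25 at day 2 (adjusted p = 0.114 from limma) and by 0.95 ± 0.20 at day 5 (adjusted p = 0.287 from limma), in 5 of 5 pairs each, and differed by 0.20 at day 30. THBS1 (thrombospondin) differed by 0.65 at day 2 and F2 (prothrombin) by 0.00 ± 0.25. FGA, the fibrinogen alpha chain, was well above background on 6 arrays and differed by 1.23 ± 0.50 at day 2 (adjusted p = 0.223 from limma), 1.31 ± 0.95 at day 5 and 1.04 ± 0.48 at day 30, and VTN (vitronectin) by -0.06 ± 0.27 at day 2. The other fibrinogen genes FGB and FGG, FN1 (fibronectin), the collagens and PDPN, which codes for the CLEC-2 ligand podoplanin, did not pass the filter.

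The kinases, adaptors and G proteins that carry the receptors' signals are shared with leukocytes, and they moved less. All 22 were tested, and at day 2 20 were higher, with a median of 0.25. Of these, 2 were under an unadjusted p-value of 0.005, against 2.03% of all probes in that direction. The brightest were GNAI2, the G protein family of P2Y12 (0.24 ± 0.11), RASGRP2, which activates RAP1 ahead of the integrin (0.18 ± 0.11), and LAT, an adaptor of GPVI signaling and of T cells (-0.07 ± 0.06). At day 5 and day 30 the median was 0.01 and 0.17.

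Alpha-granule cargo genes were higher in 12 of 12 tested at day 2, with a median of 1.15. Of the 12, 7 were under an unadjusted p-value of 0.005, against 2.03% of all probes in that direction. SRGN, the proteoglycan of granules in many blood cells, differed by 0.79 ± 0.28, PF4 by 1.49 ± 0.30 and F13A1 by 1.17 ± 0.21. Of 19 genes of the platelet cytoskeleton and platelet enzymes, 17 were higher, with a median of 1.17, 8 under an unadjusted p-value of 0.005 and 1 called. Of all probes 2.03% were higher under 0.005 and 0.0551% were called. The called gene was PDE5A, the phosphodiesterase that degrades cyclic GMP in platelets, higher by 1.46 ± 0.18 (2.75-fold, 5 of 5 pairs, adjusted p = 0.096 from limma). The brightest of this list were NRGN (1.42 ± 0.26), CTTN (1.62 ± 0.39) and ACTN1 (0.03 ± 0.06). By day 30 the medians of the cargo and cytoskeleton lists were 0.14 and -0.03.

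Transcription factors of megakaryocytes, which drive these genes in the marrow, had a median of 0.37 at day 2, with 13 of 16 higher. Of the 16, 2 were higher under an unadjusted p-value of 0.005, against 2.03% of all probes. NFE2 differed by 0.58 ± 0.16, LMO2 by 0.83 ± 0.19 and FLI1 by 0.49 ± 0.31, all 3 being expressed in other blood cells too. Of 11 other integrin subunits, 7 were higher at day 2, with a median of 0.31. The brightest were the leukocyte subunits ITGB2 (0.31 ± 0.14), ITGB7 (-0.24 ± 0.10) and ITGAL (0.28 ± 0.19).

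**Figure D3:**
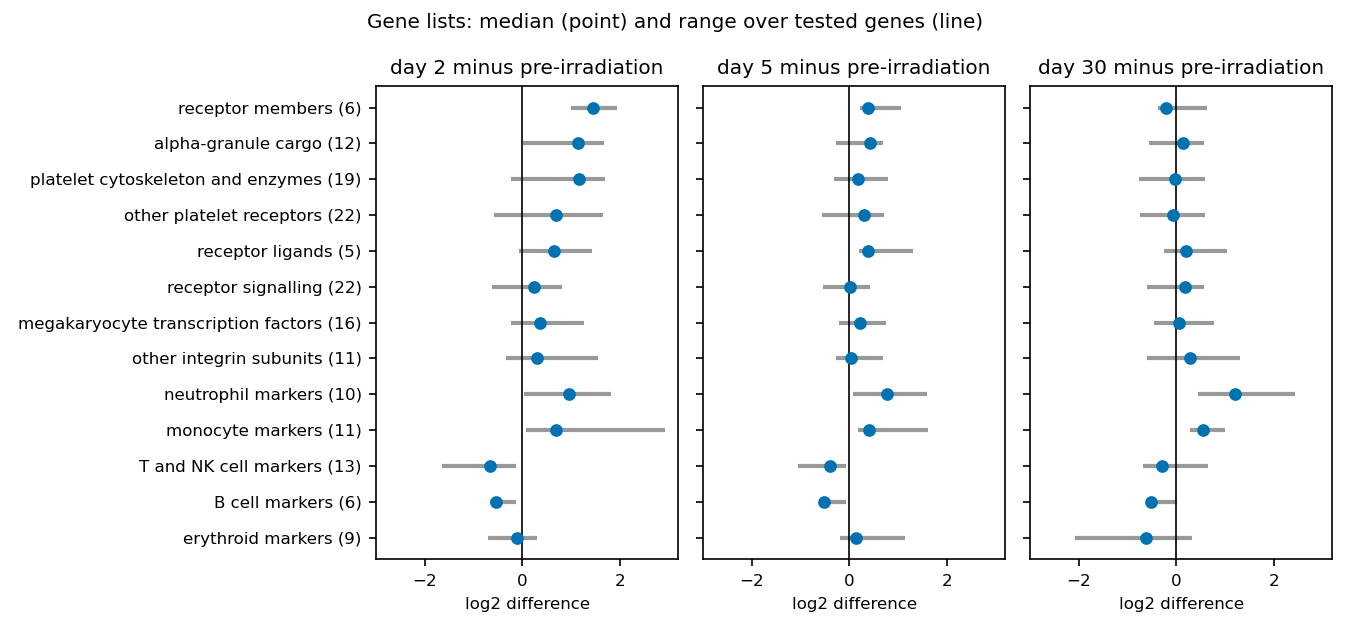
Log2 difference from pre-irradiation for the gene lists on each of the 3 later days, with the median over the tested genes as a point, their range as a line and their number in parentheses. At day 2 the receptor list has a median of 1.46, and at day 30 it has -0.21, when that of the neutrophil markers is 1.21.

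Genes beside CLEC1B and P2RY12 on the chromosome were read as well. CLEC1B lies among lectin-like receptor genes on chromosome 12, and of 9 such genes 8 were tested, with a median of 0.03 at day 2. CLEC7A, the beta-glucan receptor dectin-1 of myeloid cells, differed by 1.01 ± 0.12 (adjusted p = 0.114 from limma), and KLRF1, a receptor of NK cells, by -1.39 ± 0.30 (adjusted p = 0.137 from limma). The adjacent CLEC1A differed by 0.39 ± 0.38. Of 10 genes that neighbor P2RY12 or belong to its P2Y receptor family, 6 were tested, with a median of 0.05 at day 2. P2RY13, the ADP receptor next to P2RY12 that leukocytes express, was higher by 1.31 ± 0.16 at day 2 in 5 of 5 pairs (adjusted p = 0.110 from limma) and by 0.71 ± 0.33 at day 30. GPR171 of the same cluster differed by -0.77 ± 0.20 at day 2, and P2RY2, P2RY6, P2RY8 and P2RY10 differed by -0.16 to 0.29.

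Markers of other blood cells also moved at day 2, and their part in the receptor values was not tested. Of all probes 0.0551% were called at day 2. All 10 of 12 listed neutrophil markers that were tested were higher at day 2 (median difference 0.97), and their summed linear signal, in multiples of the 75th percentile, went from 180 to 656 before irradiation to 421 to 1486. At day 30 the neutrophil sum was 504 to 2024, with a median difference of 1.21. All 11 tested of 12 monocyte markers were higher at day 2 (median 0.69, sum 127 to 372 before and 268 to 473 at day 2), and C1QA and C1QB were called. All 13 T and NK cell markers were lower at day 2 (median -0.67, sum 218 to 315 before and 144 to 192 at day 2), with KLRB1 called, and so were all 6 tested of 8 B cell markers (median -0.55, sum 75.9 to 145.3 before and 48.5 to 92.7 at day 2). Of 9 tested erythroid markers 3 were higher and 6 lower at day 2 (median -0.10, sum 2504 to 2964 before and 1612 to 3795 at day 2). Of 6 endothelial markers, ROBO4, EMCN and KDR did not pass, CLDN5 differed by 1.33 and TEK, above background on 5 arrays, by 2.21 at day 2, and CDH5, the cadherin of endothelial junctions, differed by -0.03 ± 0.10. The sum of the 6 platelet markers was 28.9 to 99.1 before irradiation, 102 to 389 at day 2, 64.9 to 161.2 at day 5 and 57.2 to 79.6 at day 30. The day 2 range lay narrowly above the pre-irradiation range. Its lowest sum, 102, was that of replicate 3, whose day 2 array resembled no replicate number. In replicate 3 the platelet marker sum before irradiation was 28.9, against 84.2 or more in the other 4. Among the pre-irradiation arrays this one was also lowest for ITGA2B, ITGB3, GP1BB and GP9, while it was highest for CLEC1B, and replicate 2 was lowest for P2RY12.

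GP6, GP1BA and GP5 were near background. GP6 codes for the collagen receptor that signals with FCER1G. Its signal was -5.15, -6.10, -5.73, -6.13 and -5.84 before irradiation and -2.74, -5.89, -4.38, -3.17 and -2.72 at day 2. It was well above background on 3 arrays, those of replicates 1, 4 and 5 at day 2, and on none of the other 17. The mean at day 2, -3.78, was below the lowest signal counted as well above background on the pre-irradiation arrays (mean -3.66), so no fold is given. GP1BA, the ligand-binding chain of the GPIb complex, was well above background on 1 array (day 30 replicate 2, -3.67), and its other signals lay between -5.64 and -3.67. GP5, which thrombin cuts from the platelet surface, was well above background on 1 array, that of replicate 1 at day 30 (-0.92), with the other 4 arrays of that day between -6.18 and -5.99. The groups of GP5 and GP1BA overlapped on all days, and no level of these 2 genes can be compared between groups at this signal.

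**Figure D4:**
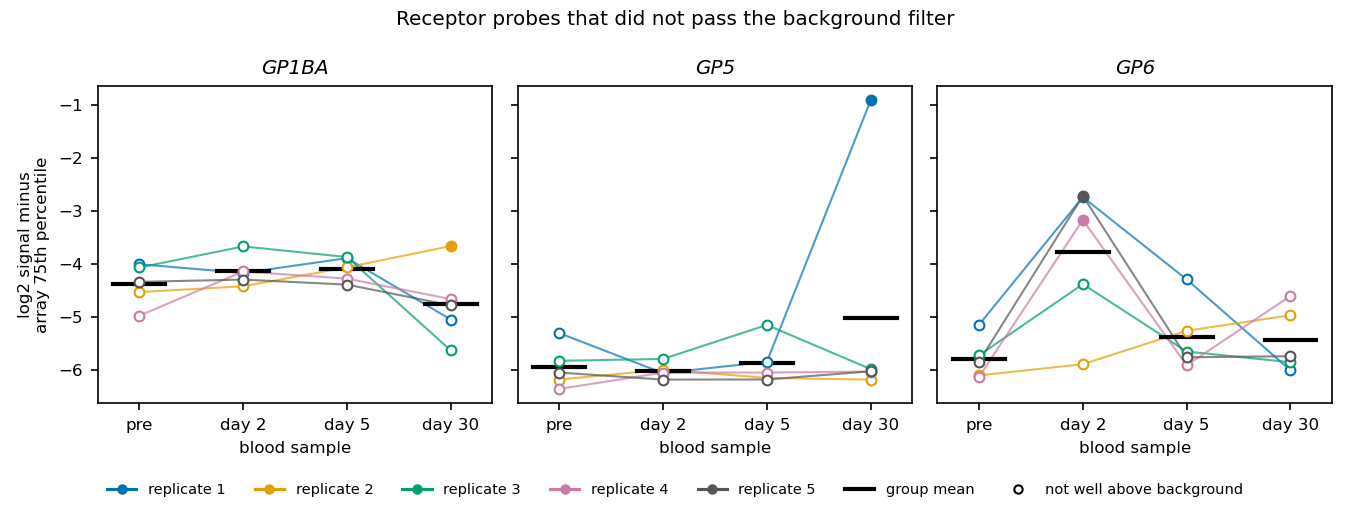
Signal of the GP1BA, GP5 and GP6 probes on every array, on the scale of log2 processed signal minus the 75th percentile of the array, with filled points for arrays well above background. GP6 has 3 filled points at day 2, and GP1BA and GP5 have 1 each at day 30.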

How the data were processed

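The authors deposited Agilent Feature Extraction output for 20 arrays of 5 replicates in 4 groups. Per the labels the version was 10.7, while the file headers give 12.0.2.2. The processed signal intensity is background subtracted and spatially detrended, and is not normalized between arrays. A deposited table of log2 values, normalized per array by the authors and holding fewer probes, was used as an alternative. Set against the scanner values, at least 96.9% of each of its columns lay within 0.001 of a fixed shift per array, so it is log2 and one shift per array accounts for its scaling.

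Control and outlier spots were left out, log2 signals of 1 probe averaged and the 75th percentile subtracted. Probes well above background on at least 5 arrays were tested in limma 3.58.1 (R 4.3.3) over all 19961 probes with at least 4 pairs, with the replicate number as a block because the methods match samples by animal, and called at p under 0.005 and FDR under 10%. With group means removed, arrays of 1 number correlated at a median of 0.28 over 30 pairs of arrays (lowest -0.16), those of different numbers at -0.07. Removing the means ties these values together, so that a positive one pushes the other below 0. SE are over pairs. P-values as reported measure how the differences vary from pair to pair, with the spread pooled over probes. Without pairing they measure the spread between these arrays. A gene with several probes is represented by its brightest.

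The receptors, gene lists and tests were chosen with earlier results of these data known. Named genes are all members, the 3 brightest and any called genes of each pathway or family list, VWF, locus neighbors and the most similar genes. The number of arrays limits precision. The fit was tested on simulated data. Alternatives were quantile and median scaling, normexp (offset 50), no filter, a filter on all 20 arrays, the deposited values, no block, 1 fit of all arrays, slide as a block, an intensity trend, each probe alone, FDR under 5%, outlier spots kept, the mean of a gene's probes, and each replicate left out.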

Additional observations from a re-analysis of the deposited data

Results flagged for a closer look

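In 3 of 48 groups of 5 arrays, 1 array stood apart from the other 4 by more than Dixon's 95% limit (0.71), and chance alone flags about 1 group in 20. ITGA2B before irradiation was -1.92 in replicate 3, against -0.69 to -0.42 in the other 4 arrays. ITGB3 before irradiation was -5.72 in the same replicate, against -3.22 to -2.24. GP5 at day 30 was -0.92 in replicate 1, against -6.18 to -5.99.

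For ITGA2B all 5 pairs were above the pre-irradiation value at day 2, and all 5 were below it at day 30. The direct comparison of day 30 with day 2 gave -1.83 (adjusted p = 0.209 from limma), which is not called.

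Among the receptor probes that did not pass the background filter, GP6 was well above background on 3 arrays of day 2, GP1BA on 1 array of day 30 and GP5 on 1 array of day 30, with 0 such arrays before irradiation for each gene.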

How the results depend on the processing

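The median log2 difference of the receptors kept its sign under every alternative run, except at day 30 against pre-irradiation, where it ranged from -0.34 to 0.04. At day 2 it ranged from 0.86 to 1.71 over 20 settings, with the lowest value, 0.86, under normexp, which also moved day 30 against day 2 to -0.78. The calls depended on the fit. At day 2, 0 genes were called as reported, 5 of 5 with probes well above background on all arrays, and 6 with the deposited values, with all 20 arrays in 1 fit, with an intensity trend or without replicate 2. Over all probes 11 were called as reported, and in these 5 settings, in this order, 209 of 15339, 327 of 5653, 368 of 19961, 218 of 19961 and 681 of 19961. The deposited table holds values for fewer probes, so its adjusted p-values were taken over 5653. For day 30 against day 2 the counts were 0 as reported, 1 with probes above background on all arrays or with an intensity trend, 2 with the deposited values or without replicate 2, and 5 with all arrays in 1 fit. Over all probes 11 were called as reported, 26 of 15339 with probes above background on all arrays, 28 of 19961 with the trend, 57 of 5727 with the deposited values, 67 of 19961 without replicate 2 and 178 of 19961 with all arrays in 1 fit. No alternative called a receptor in the other 4 comparisons. Over all probes, day 30 against pre-irradiation had 4 called as reported, 899 of 19961 under normexp and 651 of 15339 with probes above background on all arrays. With an intensity trend it had 404, with the deposited values 334 of 5653 and with all arrays in 1 fit 238. Day 5 against pre-irradiation had at most 9 (median scaling) and day 30 against day 5 at most 2 (without replicate 5). Day 5 against day 2 had 0 under every setting.

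Counts under an unadjusted p of 0.005 at day 2 were 6 as reported, 3 under normexp, 3 without pairing (no replicate block), 3 with the slide as a block, 3 without the day 2 array of replicate 3 and without pairing (chosen after seeing the data), and 1 with each probe on its own. Over all 19961 probes the counts in these settings, in this order, were 405, 90, 148, 220, 120 and 100 in the higher direction. At day 5 the 1 gene became 0 with no replicate block, with all arrays in 1 fit or with the slide as a block, and 2 under the stricter filter. Over all probes 245 were higher under 0.005 as reported, and 42, 148, 56 and 209 (of 15339) in these settings. For day 5 against day 2 the 3 genes became 5 with median scaling, 1 under normexp, with no replicate block or without the day 2 array of replicate 3, and 0 with the slide as a block or each probe on its own. Over all probes 57 were under 0.005 in either direction as reported, and 92, 13, 24, 22, 40 and 24 in these settings. For day 30 against day 5 the 1 gene became 0 with median scaling, no filter, the deposited values, no replicate block, all arrays in 1 fit or the slide as a block, and 2 with the stricter filter, the trend or each probe alone. Over all probes 124 were under 0.005 in either direction as reported. In these settings, in this order, the counts were 92, 163 of 34127, 30 of 5742, 48, 286, 75, 107 of 15339, 149 and 148. For day 30 against day 2 the 5 became 3 under normexp and 1 with each probe alone. Over all probes these counts were 299, 183 and 333 in either direction. Leaving out 1 replicate gave 0 to 6 called and 3 to 6 under 0.005 at day 2, 0 to 4 for day 5 against day 2, 0 to 1 for day 30 against day 5, and 0 to 2 called and 2 to 5 under 0.005 for day 30 against day 2. Over all probes it gave 0 to 681 called and 170 to 676 higher under 0.005 at day 2. In either direction, 17 to 145 were under 0.005 for day 5 against day 2 and 70 to 175 for day 30 against day 5. For day 30 against day 2 it gave 0 to 67 called and 154 to 564 under 0.005.

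Signs turned for 6 differences of single genes, of which the widest was that of P2RY12 from day 5 to day 30 (-0.60 as reported). ITGB3 at day 5 became -0.045 with quantile scaling and ranged from -0.15 to 0.67 when 1 replicate was left out. ITGB3 at day 30 became 0.019 with quantile scaling, 0.017 with median scaling and 0.29 under normexp, and -0.34 to 0.16 with 1 replicate left out. P2RY12 at day 30 became 0.22 under normexp and -0.17 to 0.034 with 1 replicate left out. CLEC1B for day 5 against day 2 became 0.030 under normexp. From day 5 to day 30, ITGB3 became 0.064 with quantile scaling, 0.28 under normexp and -0.51 to 0.14 with 1 replicate left out, and P2RY12 became 0.041 under normexp. The cause of these changes was not tested. GP1BA, GP5 and GP6 lie too near background to compare.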

Other observations

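The wider platelet genes were also read from day 2 to day 30. Of 19 cytoskeleton and enzyme genes, 18 were lower at day 30 than at day 2, with a median log2 difference of -1.05. Of these, 8 were under an unadjusted p-value of 0.005, against 0.877% of all probes in the lower direction. NRGN, the brightest, differed by -2.13 ± 0.37 (SE, n = 5 pairs, adjusted p = 0.140 from limma). All 12 tested alpha-granule genes were lower, with a median of -0.92, PF4 differing by -1.59 ± 0.40 and SRGN by -0.21 ± 0.33. VWF differed by -1.24 ± 0.37 (adjusted p = 0.330 from limma) and was lower in 5 of 5 pairs. The neutrophil markers had a median of 0.36 in the same comparison, 8 of 10 being higher.

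Among the lectin-like receptor genes beside CLEC1B, OLR1 codes for a receptor of oxidized lipoprotein. It differed by 1.94 ± 1.0 from pre-irradiation at day 30 (4 of 5 pairs higher, adjusted p = 0.225 from limma), against 0.12 ± 0.36 at day 2. OLR1 was well above background on 5 arrays, the fewest the filter allowed, and was the dimmest tested gene of its list. On the other arrays it was not well above background, so the size of these differences is uncertain. OLR1 was singled out after its values were seen.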
